A study of Homo sapiens with 4 samples.

Results

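The genes of pericellular proteolysis described here are PLAU, PLAUR, PLAT, SERPINE2, SERPINB2, TIMP1, TIMP2 and TIMP3. They were selected by gene symbol from a table of 17791 genes, and all 8 members were present and passed the filter of 1 CPM, meaning 1 count for every 1000000 of a library's scaled total, in at least 1 library. The libraries came from engineered prostate cancer tissues (EPCaTs), in which PC-3 cells, a line from a bone metastasis of prostate cancer, and BJ-5ta cells, foreskin fibroblasts immortalised with telomerase, were encapsulated in a gel of poly(ethylene glycol) and fibrinogen (PF). The PF EPCaT had no added PEGDA, that is poly(ethylene glycol) diacrylate, a crosslinker by which the study tuned stiffness. An excess of 2% was present in the PF+2%PEGDA EPCaT and of 3% in the PF+3%PEGDA EPCaT. The EPCaTs were seeded at a density of 20, in units of 1000000 cells per mL, and at 5 PC-3 to 1 BJ-5ta, grown in PC-3 medium and taken on day 15, and RNA of more than 2 tissues entered each library. The fourth library came from 1000000 cells of a flat (2D) coculture of both lines, for which the labels give neither day nor cell ratio. The labels name no treatment for any group.

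Each group is 1 library, so differences between groups have no replicate check and carry no p-value. Every interval below is a 95% interval that covers counting error only, so variation between tissues or cultures is unknown. Total counts ran from 13760301 to 15687894, and 1 count was worth 0.0600 to 0.0734 CPM. A gene is called higher or lower where it differed at least 2-fold and the interval excluded equality. In RNA from a mixture, fewer cells of a type and less RNA per cell cannot be told apart. Both labelled lines had their markers: the 20 measured fibroblast markers summed to 5535 CPM in 2D and to between 1422.5 and 1807 CPM in the EPCaTs. The 16 epithelial markers summed to 4866 CPM in 2D and to between 6661 and 7471 CPM in the EPCaTs.

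Plasminogen is a circulating proenzyme that becomes plasmin, a broad serine protease that dissolves fibrin and cuts other matrix proteins. PLAU encodes urokinase and PLAT tissue-type plasminogen activator, the enzymes that make this cut, and PLAUR encodes the receptor that holds urokinase at the cell surface. SERPINE2 (protease nexin-1) and SERPINB2 (plasminogen activator inhibitor 2) are suicide inhibitors of these activators. TIMPs block the metalloproteinases, some of whose proenzymes plasmin can activate. The gel of the EPCaTs contains fibrinogen, and fibrin and fibrinogen are substrates of plasmin.

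The upstream sequences of SERPINB2 and TIMP3, which had the highest and the lowest ratio to 2D of the 8 with 3% PEGDA, are shown first to set their starts side by side. They are the 250 bases before the RefSeq start of each gene, read 5′ to 3′ on the gene's strand (GRCh38, plus strand for both). For SERPINB2 this is chr18:63887455-63887704, and capitals mark the AP-1 motif TGANTCA and the TATA motif TATAAA. This window lies inside the annotated span of SERPINB2, which begins at 63871692, so it is not upstream of the whole gene. For TIMP3 it is chr22:32801455-32801704, and capitals mark the GC box GGGCGG on either strand.
SERPINB2: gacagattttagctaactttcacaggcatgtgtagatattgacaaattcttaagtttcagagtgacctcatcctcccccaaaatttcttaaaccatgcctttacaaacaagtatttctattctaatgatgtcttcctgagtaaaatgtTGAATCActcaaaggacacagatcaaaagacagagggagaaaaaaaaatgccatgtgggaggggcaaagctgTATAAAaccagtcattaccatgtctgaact
TIMP3: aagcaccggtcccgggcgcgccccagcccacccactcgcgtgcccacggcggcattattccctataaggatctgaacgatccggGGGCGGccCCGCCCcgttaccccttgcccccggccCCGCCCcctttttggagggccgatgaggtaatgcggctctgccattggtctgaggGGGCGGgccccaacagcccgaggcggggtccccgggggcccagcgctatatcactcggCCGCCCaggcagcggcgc
The SERPINB2 window was 37.2% G and C and held 1 match to TGANTCA, 102 to 96 bases before the start, and 1 to TATAAA, 30 to 25 bases before it. The TIMP3 window was 72.4% G and C and held 5 matches to GGGCGG, the nearest 18 to 13 bases before the start, with no overlap between them. Over both strands of 35116 RefSeq windows of this length, 6.57% held TGANTCA, 10.7% TATAAA and 42.6% GGGCGG. Among the 6 members with an entry in the sequence table, TGANTCA was found for PLAUR and SERPINB2. GGGCGG was found for PLAU, SERPINE2 and TIMP1 as well as TIMP3. These matches describe letters and do not show that a factor bound there.

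How the genes differed between gel and flat culture was read from the ratio of each EPCaT to 2D. Both activators and TIMP3 were lower than 2D in all 3 EPCaTs, and SERPINB2 was higher in all 3. PLAUR, TIMP1 and TIMP2 were called lower in the PF EPCaT and in neither EPCaT with PEGDA. SERPINE2 was above 2D in all 3 by less than 2-fold. In the PF EPCaT 6 members were lower, where 12% of the 14851 tested genes were, and 1 was higher, where 16.5% were. In the PF+2%PEGDA EPCaT 3 members were lower (9.45% of tested genes) and 1 was higher (12.4%), and in the PF+3%PEGDA EPCaT 3 were lower (10.4%) and 1 higher (12.1%). In all 3 EPCaTs together 3 were lower (6.07%) and 1 higher (7.84%). The median log2 ratio of the 8 was -1.15 in PF, -0.61 with 2% PEGDA and -0.44 with 3% PEGDA, beside 0.02, 0.01 and 0.00 over all tested genes. The 3 comparisons share the 2D library. Regardless of size, the interval excluded equality for all 8 members in each EPCaT, with 2 above 2D and 6 below it. Among tested genes this held for 39.3% above and 37.6% below in PF, 35.5% and 35.8% with 2% PEGDA, and 35.7% and 35.9% with 3% PEGDA.

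**Figure D1:**
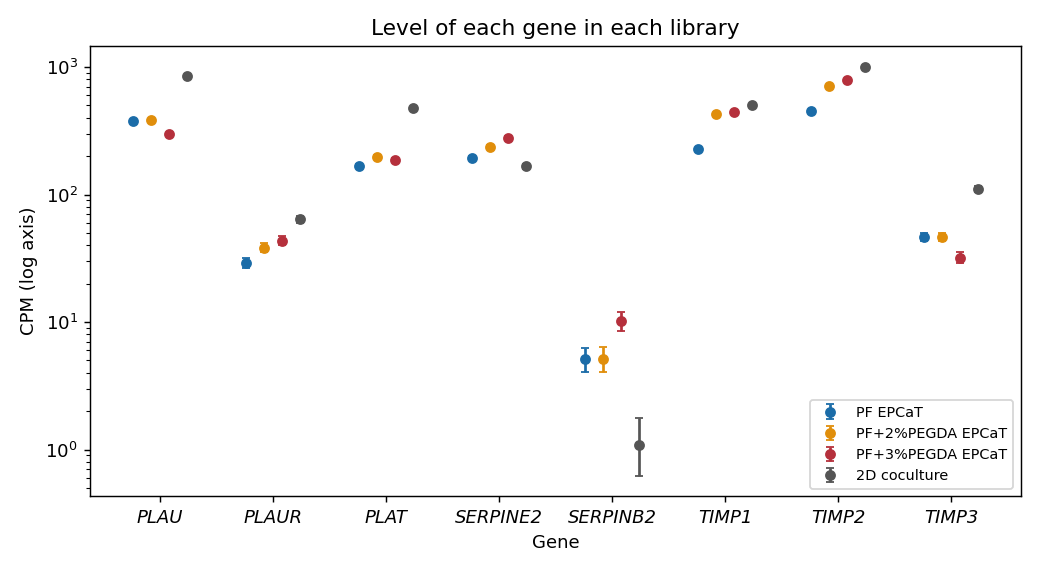
Level of each of the 8 genes in the 4 libraries, in CPM on a log axis. Points are single libraries and bars are exact 95% Poisson intervals, which cover counting error only. PLAU, PLAUR, PLAT, TIMP1, TIMP2 and TIMP3 are highest in 2D. SERPINE2 and SERPINB2 are lowest there, SERPINB2 at 1.09 CPM.

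PLAU (ENSG00000122861, chromosome 10, 73909177 to 73917497, plus strand) measured 376.5 CPM in PF, 384 CPM with 2% PEGDA, 296 CPM with 3% PEGDA and 848 CPM in 2D. Its level in 2D thus stood apart from all 3 EPCaTs, of which the one with 3% PEGDA was lowest. It was 2.25-fold (interval 2.18 to 2.32), 2.21-fold (2.14 to 2.28) and 2.86-fold (2.76 to 2.97) lower than 2D in that order. In 2D it ranked 131 among the tested genes by CPM. C10orf55, a gene on the other strand that overlaps it, measured 7.86, 5.86, 2.20 and 4.29 CPM in the order PF, 2%, 3% and 2D. Of the 50-base stretches of PLAU transcripts, 20.7% also occur in another gene, mainly C10orf55. The library kit that the labels name does not mark strand, and how reads were assigned to genes is not given in the sources used here, so the values of PLAU and C10orf55 may share reads.

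PLAT (ENSG00000104368, chromosome 8, 42175233 to 42207724, minus strand) measured 168, 198, 187 and 478 CPM in the order PF, 2%, 3% and 2D. The EPCaTs lay close together and 2D above them, by 2.84-fold (interval 2.72 to 2.97), 2.41-fold (2.31 to 2.52) and 2.55-fold (2.44 to 2.67). PLAUR (ENSG00000011422, chromosome 19, 43646095 to 43670547, minus strand) measured 28.9, 38.4, 43.4 and 63.97 CPM in that order. Its levels were therefore all under 2D, but unlike those of the enzyme that it binds they came nearer to 2D with PEGDA. It was 2.21-fold lower in PF (interval 1.98 to 2.47), and 1.67-fold (1.50 to 1.85) and 1.47-fold (1.33 to 1.64) below 2D with 2% and 3% PEGDA.

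Among the inhibitors, SERPINB2 (ENSG00000197632, chromosome 18, 63871692 to 63903890, plus strand) had 85 counts in PF, 79 with 2% PEGDA, 139 with 3% PEGDA and only 16 in 2D, or 5.10, 5.09, 10.2 and 1.09 CPM. It was the least abundant member in every library, and its level in the PF+3%PEGDA EPCaT stood above both other EPCaTs. The ratio to 2D was 4.57-fold (interval 2.72 to 8.55) in PF, 4.56-fold (2.70 to 8.56) with 2% PEGDA and 9.09-fold (5.56 to 16.8) with 3% PEGDA. Of its 50-base stretches 18.2% also occur in another gene, mainly its overlapping neighbour SERPINB10, which is not analysed here. SERPINE2 (ENSG00000135919, chromosome 2, 223975112 to 224039319, minus strand) measured 193, 236, 277 and 167 CPM in the order PF, 2%, 3% and 2D. It was 1.16-fold (interval 1.10 to 1.22), 1.42-fold (1.34 to 1.49) and 1.66-fold (1.58 to 1.75) above 2D, under the size rule each time. After subtraction of the median ratio of genes of like length and GC content, its log2 ratio in PF was 0.003 (-0.073 to 0.080), so a difference there was not detectable. Before that subtraction, the levels of SERPINE2 and SERPINB2 were both lowest in 2D and highest with 3% PEGDA, whereas those of PLAU and PLAT were highest in 2D.

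TIMP1 (ENSG00000102265, chromosome X, 47582313 to 47586789, plus strand) encodes a soluble inhibitor of most metalloproteinases and measured 226, 429, 443 and 502.5 CPM in the order PF, 2%, 3% and 2D. The PF EPCaT stood apart as low, 2.22-fold under 2D (interval 2.14 to 2.31), whereas with 2% and 3% PEGDA the level was 1.17-fold (1.13 to 1.21) and 1.13-fold (1.10 to 1.17) under it. TIMP2 (ENSG00000035862, chromosome 17, 78852977 to 78925387, minus strand), which also helps MMP14 to activate the MMP2 proenzyme, measured 451, 715, 795 and 996 CPM. Its order over the libraries was the one seen for TIMP1, with 2.21-fold (2.15 to 2.27), 1.39-fold (1.36 to 1.43) and 1.25-fold (1.22 to 1.285) under 2D. TIMP3 (ENSG00000100234, chromosome 22, 32801701 to 32863043, plus strand), the TIMP that is bound to matrix and also inhibits ADAM17, measured 46.3, 46.7, 32.1 and 111 CPM. It departed from the other TIMPs in that the PF+3%PEGDA EPCaT was its lowest library: it was 2.39-fold (2.20 to 2.61), 2.37-fold (2.17 to 2.59) and 3.45-fold (3.11 to 3.85) lower than 2D. TIMP1 lies in the span of the synapsin gene SYN1 and TIMP3 in that of SYN3, both on the other strand. SYN3 had 3, 7, 0 and 3 counts, and SYN1 is not analysed here. CEP295NL, within the span of TIMP2, had 15, 6, 0 and 5 counts. Of the 50-base stretches of TIMP2, 8.28% also occur in another gene, mainly AC022966.1, which overlaps it on the other strand and is not analysed here.

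**Figure D2:**
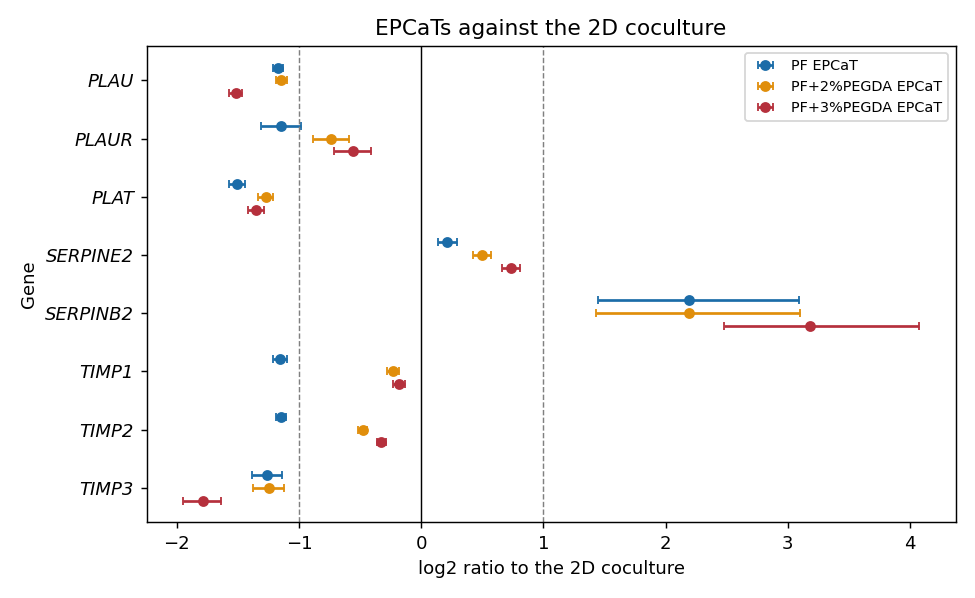
Log2 ratio of each EPCaT to the 2D coculture for the 8 genes, with 95% intervals from counting error and dashed lines at 2-fold. PLAU, PLAT and TIMP3 lie below the lower line in all 3 EPCaTs, PLAUR, TIMP1 and TIMP2 in the PF EPCaT, and SERPINB2 lies above the upper line in all 3.

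Several of these calls lie near the size rule. With total counts as the only scaling, the log2 ratios of PLAU, PLAUR, TIMP1 and TIMP2 in the PF EPCaT were -0.99, -0.97, -0.97 and -0.96, which left 2 members called lower there. After subtraction of the median ratio of the 500 tested genes nearest in transcript length and GC content, TIMP1 was at -0.69 and PLAUR at -0.84 in that EPCaT. That median was -0.46 for the genes nearest to TIMP1 and -0.31 for those nearest to PLAUR. The 12 reference genes summed to 12195 CPM in PF and to 17555, 19149 and 16916 CPM with 2%, with 3% and in 2D. The part of transcript length in these ratios was not tested. With 3% PEGDA, TIMP1 was at 0.045 with that trend removed (interval -0.004 to 0.095), so the direction of its difference from 2D was not detectable. PLAU, PLAT, TIMP3 and SERPINB2 kept their calls against 2D in the EPCaTs with PEGDA under these alternatives.

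Markers of the cell lines also differed between the EPCaTs and 2D. Of the 20 measured fibroblast markers, 12 were lower than 2D in all 3 EPCaTs and 1, MME, was higher, with medians of -1.85, -1.75 and -1.83 in PF, 2% and 3%. All 21 listed were in the table, and PDGFRB and COL1A2 led the lower ones, at 8.91- to 13.8-fold and 7.17- to 17.5-fold. CTNNA1, which is homozygously deleted in PC-3, measured 5.40, 6.18, 8.29 and 33.1 CPM. By the rule, 5 of the 16 epithelial markers stood above 2D in PF, 6 with 2% PEGDA and 6 with 3% PEGDA, and 0 stood below it. The 4 shared by all 3 EPCaTs were ELF3, ST14, CDH1 and RAB25 (medians 0.66, 0.57 and 0.47). The part of the share of each line in the results for the 8 genes was not tested. Of 14 endothelial, blood and macrophage markers, cell types that were not seeded, 9 were in the table and 4 of these passed the filter. Their summed level ran from 121 to 155 CPM in the EPCaTs against 128 CPM in 2D. PECAM1 was 9.11- to 12.0-fold higher than 2D. CD68, the bulk of the sum in 2D and named here after its values were seen, measured 53.3, 55.2, 66.6 and 118 CPM in PF, 2%, 3% and 2D. By the rule, 2 of the 4 were lower in PF, 1 with 2% PEGDA and 0 with 3% PEGDA, with medians of -0.41, -0.60 and -0.16. VWF and ITGAM had at most 4 counts in any library.

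The genes were then followed over the PEGDA range. No member passed the 2-fold rule between any pair of EPCaTs, where 3.63% of tested genes were higher and 7.51% lower with 3% PEGDA than in PF. The comparisons share libraries. For 2% against PF these shares were 2.98% and 5.56%, and for 3% against 2% they were 1.85% and 2.41%. Under 2-fold, intervals excluded equality for all 8 members in the comparison of 3% with PF. Of these, 6 were above PF (32% of tested genes) and 2 below it (31.8%), so such intervals were common and stand only for counting error. From PF to 2%, 5 were above (29.9%) and 0 below (29.2%), and from 2% to 3%, 4 were above (20.1%) and 3 below (19.5%). PLAUR, SERPINE2, TIMP1, TIMP2, SERPINB2 and PLAT were above PF, and PLAU and TIMP3 below it. The members' median log2 ratio was 0.55, beside 0.00 over all tested genes. The 12 reference genes had a median of 0.41, with B2M (2.20-fold) and RPLP0 (2.12-fold) higher with 3% PEGDA than in PF, and their part in the members' values was not tested.

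TIMP1 with 3% PEGDA was 1.96-fold (interval 1.88 to 2.04) and TIMP2 1.76-fold (1.71 to 1.815) above PF, most of which was already present with 2% PEGDA, at 1.90-fold (1.82 to 1.98) and 1.59-fold (1.54 to 1.63). From 2% to 3%, TIMP1 had an interval that held equality (0.997 to 1.07). With the trend with length and GC removed, the log2 ratio of 3% to PF was 0.73 for TIMP1 and 0.88 for TIMP2, against 0.97 and 0.82 before. For TIMP1 the log2 ratio of 3% to 2% was then 0.117 (0.066 to 0.167), an interval that excluded equality. TIMP3 took the opposite course: it was level between PF and 2% (ratio 1.01, interval 0.910 to 1.12) and then 1.46-fold (1.29 to 1.64) lower from 2% to 3%. PLAU followed the same steps, at 1.02-fold (0.984 to 1.06) and then 1.30-fold (1.25 to 1.35) lower. The pair of PLAU and TIMP3 had the most similar pattern of any 2 members over the 4 libraries, with a root mean square difference of 0.0980 on the centred log2 scale, followed by TIMP1 and TIMP2 at 0.108.

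SERPINE2 was the member that was higher at both PEGDA steps and in every EPCaT than in 2D. The steps were 1.22-fold (interval 1.16 to 1.28) from PF to 2% and 1.175-fold (1.12 to 1.23) from 2% to 3%. With the trend with length and GC removed, its difference from 2D in PF was not detectable. PLAUR and TIMP2 also went up at both steps. For PLAUR these were 1.33-fold (1.18 to 1.50) and 1.13-fold (1.01 to 1.27). The log2 ratios of PLAUR at these steps were 0.409 and 0.178. They were 0.183 (0.007 to 0.359) and 0.217 (0.050 to 0.383) with that trend removed. SERPINB2 was level at the first step (ratio 0.998, interval 0.725 to 1.37) and 1.997-fold (1.51 to 2.68) above at the second. Its ratio of 3% to PF was 1.99 (1.52 to 2.65) and passed the size rule with DESeq2 size factors, at a log2 ratio of 1.001. PLAT stayed within 1.18-fold between all pairs of EPCaTs. Fibroblast markers in the comparison of 3% with PF had a median of -0.33, with COL5A2 and COL1A2 lower and 0 higher, and CTNNA1 was 1.53-fold above PF (1.15 to 2.05).

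**Figure D3:**
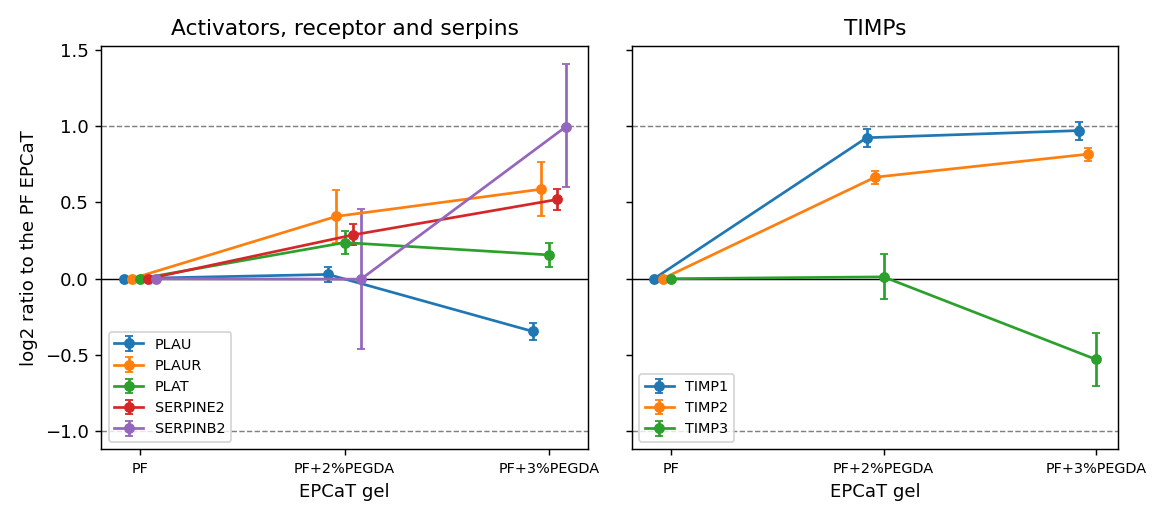
Log2 ratio of each EPCaT with PEGDA (2% or 3%) to the PF EPCaT, which is set to 0, for activators, receptor and serpins (left) and TIMPs (right). Bars are 95% intervals from counting error and dashed lines mark 2-fold; TIMP1 and TIMP2 are at 0.97 and 0.82 with 3% PEGDA and TIMP3 at -0.53.

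Levels of different genes were then compared per length, as CPM per kilobase of annotated exon. TIMP1 had the highest level per kilobase of the 8 in every library (147, 278, 288 and 326 CPM per kilobase in PF, 2%, 3% and 2D). In 2D, PLAU followed at 287, then TIMP2 at 177, PLAT at 72.2, TIMP3 at 24.1, SERPINE2 at 18.7, PLAUR at 14.4 and SERPINB2 at 0.397 CPM per kilobase. With 3% PEGDA the order differed: TIMP2 (141) stood above PLAU (100.4), SERPINE2 (31.2) above PLAT (28.3) and TIMP3, and PLAUR (9.75) above TIMP3 (6.97). In the PF+2%PEGDA EPCaT, PLAU at 130 (interval 127 to 133) and TIMP2 at 127 (125 to 129) did not differ beyond counting error. Summed per kilobase, both activators reached 153, 160.1, 129 and 360 and the TIMPs 237, 416, 436 and 527 in the same order. SERPINE2 and SERPINB2 summed to 23.6, 28.4, 34.9 and 19.1 CPM per kilobase. The order depends on the length used: with the longest transcript in place of all exons, 4 of 8 members kept their place in the PF+2%PEGDA EPCaT, where TIMP2 (196) was then above PLAU (144) and PLAUR (23.8) above TIMP3 (10.1). With that length, PLAT (54.1) stood above SERPINE2 (46.3) with 3% PEGDA, and PLAUR (39.7) was above TIMP3 (24.1) already in 2D. Of the differences in order on all exons between 3% PEGDA and 2D, the one of TIMP2 and PLAU was then left. SERPINE2 and PLAUR then also differed in order, at 27.8 and 39.7 in 2D and 46.3 and 27.0 with 3% PEGDA.

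Ratios of 2 genes within a library do not depend on the scaling between libraries, but the trend with length and GC was not removed from them. From PF to 2%, the median log2 ratio of the genes nearest in length and GC was 0.073 for PLAU and 0.226 for PLAUR. On the level per kilobase, the ratio of PLAU to its receptor gene PLAUR was 19.7 (interval 17.9 to 21.6) in PF, 15.1 (13.9 to 16.5) with 2%, 10.3 (9.45 to 11.2) with 3% and 20.0 (18.7 to 21.4) in 2D. PF and 2D overlapped, and the ratio was lower with each step of PEGDA. With the longest transcript in place of all exons, this ratio was 7.89, 6.06, 4.13 and 8.03 in PF, 2%, 3% and 2D. The size of each ratio thus depends on the length used, but its order over the libraries does not. Values below use all exons unless stated. PLAU to PLAT was 5.02 (4.80 to 5.25), 4.35 (4.16 to 4.54), 3.55 (3.37 to 3.73) and 3.98 (3.87 to 4.10) in PF, 2%, 3% and 2D, so that 2D lay between the EPCaTs with 2% and 3% PEGDA. PLAU to SERPINE2 separated gel from flat culture, with 5.87 (5.63 to 6.13), 4.91 (4.71 to 5.11) and 3.22 (3.08 to 3.37) in the EPCaTs and 15.3 (14.7 to 16.03) in 2D.

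The balance of both member serpins also differed. SERPINE2 to SERPINB2 was 47.2 (29.03 to 82.8) in 2D and 11.7 (9.44 to 14.7), 14.3 (11.5 to 18.1) and 8.40 (7.09 to 10.02) in PF, 2% and 3%, and its interval in 2D lay above those of all 3 EPCaTs. Within the TIMPs, TIMP2 to TIMP3 was 7.34 (6.97 to 7.73) in 2D, 7.96 (7.39 to 8.58) in PF, 12.5 (11.6 to 13.5) with 2% and 20.2 (18.4 to 22.3) with 3% PEGDA. With the longest transcript, TIMP2 to TIMP3 was 11.3 in 2D and 31.2 with 3% PEGDA. On all exons, TIMP1 to TIMP2 stayed between 1.83 and 2.19 in all 4 libraries. TIMP2 to MMP14, a membrane metalloproteinase that TIMP2 binds, was 2.02 (1.93 to 2.10), 2.99 (2.87 to 3.12) and 3.89 (3.71 to 4.07) in PF, 2% and 3% and 3.10 (2.99 to 3.21) in 2D.

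**Figure D4:**
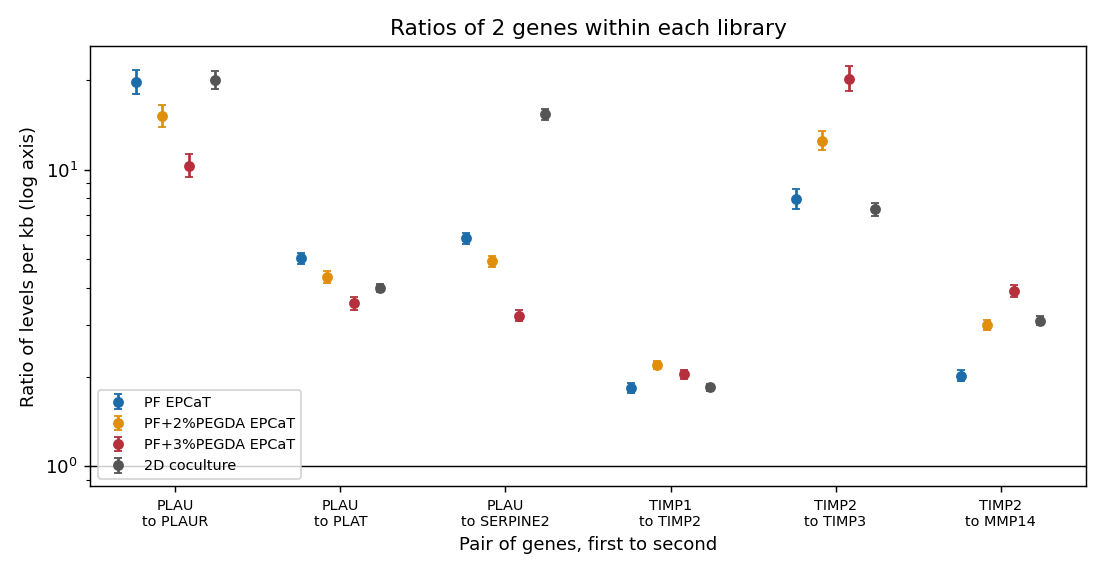
Ratio of the levels per kilobase of 2 genes within each library, on a log axis, with 95% intervals from counting error. PLAU to SERPINE2 is 15.3 in 2D and between 3.22 and 5.87 in the EPCaTs, and TIMP2 to TIMP3 is highest with 3% PEGDA, at 20.2. The size of each ratio depends on the gene lengths used, here all exons.

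The other genes of the system were read from fixed lists. Of 19 other genes of plasminogen activation, 14 were in the table and 13 were measured. In all 3 EPCaTs, ST14, a membrane serine protease that can activate pro-urokinase, was higher (2.45- to 3.20-fold) and none was lower, and the medians in PF, 2% and 3% were 0.05, 0.20 and 0.07. The gene of plasminogen itself, PLG, is not analysed here. S100A10 and ANXA2, which form a plasminogen receptor at the cell surface, measured 284, 379, 391 and 217 CPM and 312, 470, 453 and 577 CPM in PF, 2%, 3% and 2D, neither past the size rule in all 3. LRP1, the receptor that clears complexes of activators and serpins, measured 348, 369, 399 and 249 CPM. VLDLR, which binds the same complexes, was 2.48-fold higher with 3% PEGDA than in PF (interval 1.97 to 3.18), the only one of the 13 past the rule there.

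Of 15 other serpin genes, 11 were measured, of which 3 fell below 2D by the rule in each EPCaT. These were SERPINB7 (2.93- to 5.13-fold), SERPINB8 (2.62- to 3.71-fold) and SERPINH1, a collagen chaperone (2.30- to 3.28-fold). SERPIND1, a thrombin inhibitor, was higher (2.44- to 3.44-fold), and none passed the rule between 3% PEGDA and PF. Of 23 metalloproteinases and further inhibitors, 20 were measured. MMP10, a stromelysin, was the only one called in all 3 EPCaTs (12.1- to 19.5-fold higher), and the medians were -0.25, -0.26 and -0.01. MMP14 measured 177, 189, 162 and 255 CPM, MMP1 58.96, 64.1, 77.99 and 47.9 CPM and MMP2 37.0, 46.8, 70.2 and 61.7 CPM in PF, 2%, 3% and 2D. MMP3 was 2.98-fold higher with 3% PEGDA than in PF (2.32 to 3.90). TIMP4 and RECK, a membrane inhibitor, stayed at or under 1.61 and 5.93 CPM and were not called.

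Among 15 factors known to act on PLAU and PLAUR, namely AP-1, Ets and NF-kB factors and SP1, all were measured. ETS1 alone was called in all 3 EPCaTs (2.38- to 2.75-fold lower). JUND was 2.03-fold above PF with 3% PEGDA (interval 1.94 to 2.11), and the list medians against 2D were 0.06, -0.14 and -0.12. Of 17 receptors and clearance partners, 15 were measured, 4 were higher and 2 lower in all 3 EPCaTs. The lower ones were ITGA3 (4.37- to 4.76-fold), an integrin subunit that can bind the urokinase receptor, and ITGB5 (2.21- to 3.10-fold). SORL1, a sorting receptor for several of these complexes, was 2.37- to 2.50-fold higher, and KDR, the VEGF receptor that TIMP3 can block, 6.98- to 10.3-fold. FPR3, a formyl peptide receptor whose family can bind cleaved urokinase receptor, had 68.1, 59.0 and 71.8 CPM in PF, 2% and 3% and 0 counts in 2D, which allows up to 0.204 CPM. FPR1, the fourth, had 9, 19, 14 and 1 counts and is named here after its values were seen.

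Of 11725 other genes with a mean of at least 5 CPM, those with the pattern most like each member over the 4 libraries were found by the root mean square difference of centred log2 levels. For PLAU they were TIMM44 (0.0296), DDX10 and FKBP2, and for TIMP3 they were RRP9 (0.0355), FKBP2 and INPP1. PLAT was nearest to TTC4 (0.0118), YARS1 and SBDSP1, and PLAUR to PAK3 (0.0233), PRSS16 and FZD2. SERPINE2 was nearest to ARPP19 (0.0177), RBBP9 and ARL6. TIMP1 was nearest to IFITM10 (0.0173), RPLP1 and SDHAF2, and TIMP2 to BOLA2-SMG1P6 (0.0250), TMEM147 and RNF187. SERPINB2 had no match as near as those: its nearest genes, PLAAT4, MOXD1 and ANOS1, differed by 0.189, 0.190 and 0.209. It had 16 counts in 2D, and the part of counting error in these distances was not tested.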

How the data were processed

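Levels of the 8 genes were measured by RNA sequencing in 4 libraries, 1 per group. The authors deposited expected counts, estimated reads per gene that were not scaled between libraries, from reads aligned to hg38; FastQC, STAR and Partek are named in the submitters' processing notes. Versions, annotation and counting method are not given in the sources used here. Between 18.2% and 19.9% of values were not whole at a tolerance of 0.01 and were rounded. Genes with at least 1 count per 1000000 in 1 or more libraries (14851) set the TMM scaling in edgeR 4.0.16 (R 4.3.3). Log2 ratios used a prior count of 0.5 and exact Clopper-Pearson 95% intervals. The call rule was tested on simulated counts. Total counts were 13760301 to 15687894, and a gene at 0 counts could reach 3 counts, or 0.180 to 0.220 CPM. Coordinates and lengths come from GENCODE 29 (GRCh38), upstream sequences from RefSeq (GRCh38). Named genes were the 8 members, fixed partners, in each list up to 4 called in all 3 EPCaTs against 2D and up to 3 called between 3% PEGDA and PF (at least 5 CPM, ranked by the interval bound nearest to equality), and the 3 nearest patterns per member. Members and lists were chosen with earlier results of these data known. A gene of these lists is not reported here and was left out of them. Python 3.11.15, numpy 2.4.6, pandas 2.3.3, scipy 1.17.1, matplotlib 3.10.9 and DESeq2 1.42.0 (size factors only) were used.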

Additional observations from a re-analysis of the deposited data

How the results depend on the processing

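No paired analysis was possible because each group has 1 library. Calls of the 8 members were recomputed under other scalings (DESeq2 size factors, total counts, upper quartile), a 4-fold rule, a prior count of 2, a 99% interval, no filter, a filter of 5 CPM and unrounded values. Others were added after seeing the data: leaving out each EPCaT in turn, and removing the trend with transcript length and GC content. The counts in all 3 EPCaTs (1 higher, 3 lower) were 1 and 3 without any one EPCaT; leaving one out cannot lower them, and the 2D library on which they rest could not be left out. At the 4-fold rule 0 members were lower in the PF, PF+2%PEGDA or PF+3%PEGDA EPCaT or in all 3. With total counts 2 were lower in PF and 2 in all 3 EPCaTs, where the call of PLAU was lost (log2 ratio -0.99 in PF). With DESeq2 size factors 1 member, SERPINB2, was higher with 3% PEGDA than in PF and than with 2%. Over the scalings, the prior count and the trend, no call among 48 member ratios reversed; 4 were lost with total counts and 2 with the trend removed. Total counts moved the median of all tested genes by 0.18 in PF against 2D and by 0.11 with 2% PEGDA, and the share of higher genes among those called in PF against 2D from 57.8% to 68.5%. With total counts the lists gave 2 plasminogen activation genes and 3 metalloproteinases higher in all 3 EPCaTs; between 3% PEGDA and PF they gave 0 AP-1, Ets and NF-kB factors higher, 1 epithelial marker lower, 1 endothelial, blood or macrophage marker lower and 1 reference gene higher. With the longest transcript, 4 members kept their place in the order per kilobase with 2% PEGDA. Causes of these shifts were not tested. Depth limits SERPINB2 most, with 16 counts in 2D.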
